A study of Mus musculus with 13 samples.

Results

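The 9 nuclear receptor genes described here are Rora, Ppara, Ppard, Nr3c1, Nr3c2, Vdr, Rxra, Thra and Rarg, taken from 19938 genes that the arrays measured with a probe set of 1 gene. Each was followed through its highest-mean single-gene probe set, which for each of the 9 was also its only one, and all 9 were bright enough to be among the 14953 genes tested. Their probe sets on the array are 10586700 for Rora, 10425987 for Ppara, 10443332 for Ppard, 10458569 for Nr3c1, 10572949 for Nr3c2, 10432032 for Vdr, 10470446 for Rxra, 10381006 for Thra and 10432972 for Rarg. Whole back skin came from male C57Bl6 mice of postnatal day 46, whose hair follicles were resting (telogen). No genetic change or treatment distinguished the mice, which were kept under 12 h of light and 12 h of darkness and fed freely. Skin was taken every 4 h over 48 h, with times given as ZT, the hours since lights on, and lights off at ZT12. Each of the 13 arrays held RNA pooled from 3 mice, so the spread between arrays of 1 time of day is that between pools and not between animals. ZT2 had 3 arrays, ZT6, ZT10, ZT14, ZT18 and ZT22 had 2 each, and thus 7 arrays were from the light phase and 6 from the dark phase.

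Nuclear receptors are transcription factors that a small lipid-soluble molecule can switch: they bind short DNA motifs and, depending on whether a ligand is bound, exchange corepressors for coactivators. The corticosteroid receptors bind largely as homodimers, whereas the receptors for thyroid hormone, vitamin D, retinoic acid and fatty acids share the retinoid X receptor as their partner. In skin they are known for the control of keratinocyte differentiation, lipid production and inflammation, for the hair cycle (the vitamin D receptor in particular), and, through the ROR and REV-ERB receptors, for the molecular clock.

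None of the 9 receptors passed the test for a 24 h rhythm. The measurements place their daily swings at 1.02-fold for Ppard to 1.48-fold for Ppara between fitted peak and trough, and 6 of the 9 were below 0.2 on the log2 scale. Across all genes tested, 318 were called (2.13% called, limma's F test on a 24 h cosine and sine, Benjamini-Hochberg adjusted p below 0.05), and the members' count of 0 is to be read against that share. At an unadjusted p below 0.05, 3 of the 9 passed, Thra, Nr3c2 and Ppara, where 18.6% of all genes did. The median peak-to-trough difference was 0.17 on the log2 scale for the 9 receptors and 0.19 for all genes. The fitted peaks of 8 of the 9 fell in the light phase, as did those of 59.7% of all genes, with Rarg at ZT16.9, although the peak time of a curve this shallow is poorly fixed (the standard error was 18.0 h for Ppard and 5.61 h for Rarg, against 0.97 h for Nr3c2). All fold changes are on the log2(intensity + 16) scale, which slightly understates changes of dim genes. In bulk RNA, fewer cells of a type and less RNA per cell cannot be told apart.

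**Figure D1:**
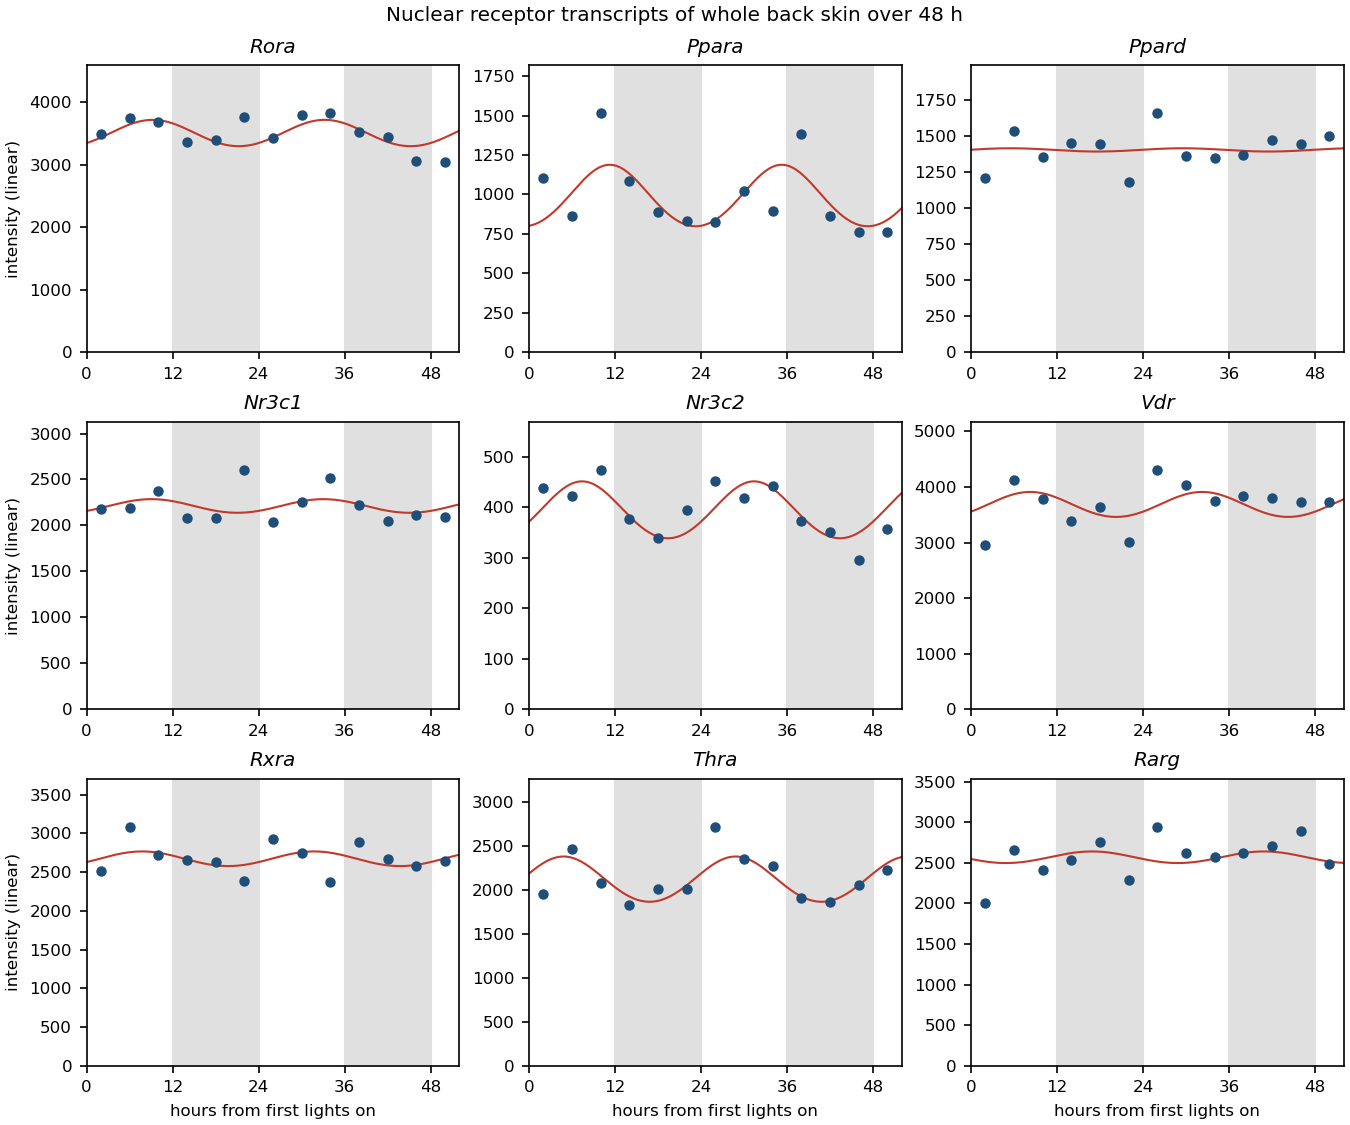
Intensity (linear scale, vertical axis from 0) of the 9 receptors in each of the 13 arrays against hours from the first lights on, with dark phases shaded and the fitted 24 h curve in red. Points are single arrays, each a pool of 3 mice; the curves of Ppara, Nr3c2 and Thra have the deepest swings, and that of Ppard, at 1.02-fold, is nearly flat.

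Skeletal muscle markers were present on every array, all 20 above the filter with sums of 118080 to 176510. So were skin markers: the 12 keratinocyte genes listed were all above the intensity filter, with sums of 89567 to 98659, and so were the 10 dermal fibroblast and 9 sebaceous gland genes, with none at 0. Arrays correlated pairwise at 0.891 to 0.992 across genes, and their median intensities lay between 353.8 and 392.8. The first ZT2, first ZT22 and second ZT22 arrays stood furthest from the others by their median correlation (0.961, 0.962 and 0.945). The second ZT22 array had the highest hair shaft score (2.93, the mean of standardised log2 values) and the lowest liver score (-2.03) and skeletal muscle score (-1.73). The first ZT2 array had the lowest adipocyte score (-1.32), dermal fibroblast score (-2.09), immune score (-1.86) and sebaceous gland score (-1.53). Sums of the 14 hair shaft genes measured ran from 4200 to 6314 in the light arrays and from 4966 to 40680 in the dark arrays. Liver genes, which skin should hardly express, were detected on all arrays at sums of 15158 to 106410 over 13 genes, none of them at 0.

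The corticosteroid receptors are Nr3c1, the glucocorticoid receptor, which most cell types carry, and Nr3c2, the mineralocorticoid receptor, which binds aldosterone and also corticosterone. Nr3c2 measured 439, 453 and 356 at ZT2, 422 and 418 at ZT6, 474 and 443 at ZT10, 377 and 373 at ZT14, 340.0 and 351 at ZT18, and 394 and 295 at ZT22. The light arrays thus lay between 356 and 474 and the dark arrays between 295 and 394, and the phases overlapped only through the third ZT2 array. The fitted swing was 0.40 ± 0.11 (SE) on the log2 scale, or 1.32-fold, with the peak at ZT7.41 (adjusted p = 0.146, limma) and up to 1.62-fold within the joint 95% confidence region. Dark minus light was -0.26 ± 0.07 on the same scale (adjusted p = 0.407, limma, unadjusted p = 0.00294), with means of 429 ± 37.3 (SD, n = 7) in the light and 355 ± 34.9 (SD, n = 6) in the dark. On the second ZT22 array, where Nr3c2 was at its lowest (295), the hair shaft score was at its highest; with that score as a covariate the swing of Nr3c2 was 0.33 (adjusted p = 0.154, limma). Without the first arrays of ZT2 and ZT22, a setting chosen after seeing the data, the swing of Nr3c2 passed (adjusted p = 0.0483, limma).

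Nr3c1 did not pass the 24 h test. It measured 2176, 2035 and 2097 at ZT2, 2193 and 2252 at ZT6, 2379 and 2511 at ZT10, 2083 and 2218 at ZT14, 2083 and 2052 at ZT18, and 2605 and 2117 at ZT22. Its highest value was that of the first ZT22 array, above every other dark array, and both ZT10 arrays were above every array of ZT2, ZT6, ZT14 and ZT18. The 24 h swing was 0.10 ± 0.10 on the log2 scale (1.07-fold, adjusted p = 0.756, limma), and the curves within the joint 95% confidence region reached at most 1.29-fold. Without the first ZT22 array, its highest, the swing was 0.21, still not past the threshold, and without other single arrays it went as low as 0.04. A 12 h component, which would lift both ZT10 and ZT22, came to 0.22 ± 0.08 on the log2 scale (adjusted p = 0.863, limma, unadjusted p = 0.0519). No gene of the 14953 passed that test (0% called), and 5.46% were at an unadjusted p below 0.05.

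Several of the genes that handle corticosteroids or respond to them passed the 24 h test. Of 23 listed corticosteroid targets tested, 7 were called (30.4%, against 2.13% of all genes). The median swing was 1.36-fold over the list against 1.14-fold over all genes. This list, like the other gene lists here, was chosen with earlier results of these data known, so its count is a description. Of the 7, 4 peaked in the light and 3 in the dark, with all 7 fitted peaks between ZT9.49 and ZT13.3. Per1, a clock gene with a glucocorticoid response element, swung 3.51-fold with its peak at ZT10.5 (adjusted p = 5.9e-04, limma), and measured 3497 and 3611 at ZT10 against 907 and 1162 at ZT22. The transcription factor genes Klf9 (1.74-fold, ZT9.49) and Zbtb16 (2.47-fold, ZT11.7) peaked late in the light, and Glul, which encodes glutamine synthetase, peaked at ZT13.3 (1.78-fold). Tsc22d3, Fkbp5 and Nedd4l complete the called targets and were named after their values were seen. The count of called targets ranged from 3 to 9 over the alternative settings.

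Of 11 tested genes of corticosteroid enzymes and receptor chaperones, 5 were called, or 45.5% against 2.13% of all genes. This list too was chosen with earlier results of these data known, so its count is a description. The receptor chaperones hold the receptors in a ligand-binding state. The enzyme genes Hsd11b1 (1.51-fold, adjusted p = 0.463, limma) and Hsd11b2 (1.26-fold, adjusted p = 0.327, limma) were not called. Both were named after their values were seen. Hsd11b1 was highest on the second ZT14 (1668) and first ZT10 (1517) arrays, where the 13 liver genes summed to 94670 and 106410. It was 586 on the second ZT10 array and 660 on the second ZT22 array, with liver sums of 25174 and 15158. The part of liver RNA in the Hsd11b1 values was not tested. Fkbp5, a co-chaperone that lowers the receptor's affinity for hormone and is itself a glucocorticoid target, measured 1385 and 1387 at ZT14 against 453 and 681 at ZT6, and its fitted swing was 2.34-fold with the peak at ZT13.0 (adjusted p = 0.0212, limma). H6pd, which supplies NADPH to the enzyme that regenerates active corticosterone, swung 1.57-fold with the peak at ZT10.3 (adjusted p = 0.0272, limma). The chaperone genes peaked at the other end of the day: Hsp90aa1 at ZT20.3 (1.67-fold, adjusted p = 0.0114, limma) and its co-chaperone Stip1 at ZT21.3 (1.42-fold). Fkbp4, the fifth and named after its value was seen, swung 1.34-fold and peaked at ZT20.8. Hsp90aa1 was called under all 26 alternative settings, Stip1 under 24, Fkbp5 under 22 and H6pd under 18; without single arrays the list's count of called genes went down to 1.

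Thyroid hormone acts on its target genes through Thra, the receptor alpha gene, and Thrb, the receptor beta gene. Thra measured 1956, 2720.2 and 2228 at ZT2, 2466 and 2352 at ZT6, 2083 and 2272 at ZT10, 1833 and 1904 at ZT14, 2006 and 1867 at ZT18, and 2011 and 2058 at ZT22. All 6 dark arrays lay between 1833 and 2058, and of the light arrays only the first ZT2 array (1956) fell among them. The fitted swing was 0.35 ± 0.09 on the log2 scale (1.27-fold) with the peak at ZT4.84 (adjusted p = 0.144, limma), and 58.5% of the variance over arrays followed the curve; the joint 95% confidence region reached 1.54-fold. Dark minus light was -0.23 ± 0.07 (adjusted p = 0.437, limma, unadjusted p = 0.00505), with means of 2297 ± 251 (SD, n = 7) in the light and 1947 ± 90.7 (SD, n = 6) in the dark.

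The call on Thra depended on 1 array. Without the first ZT2 array the swing was 0.41 and passed the threshold (adjusted p = 0.0366, limma). That array was also lowest for Vdr, Rarg and Rara and had the low fibroblast, immune and sebaceous scores given above; the part of these in its Thra value was not tested. In the RefSeq gene table the spans of Thra and Nr1d1, the REV-ERB alpha gene, overlap, and Nr1d1 swings strongly: it measured 10545 and 9894 at ZT6 and 1392 and 1459.9 at ZT22. Over the 13 arrays Thra and Nr1d1 correlated at r = 0.58 (Spearman's rho 0.75; r = 0.58 without the 2 arrays furthest from the Thra median), a likeness to Thra that 7.94% of all genes matched or passed. Both are high by day, and whether signal from one reached the probe set of the other was not tested.

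Thrb ranged from 553 to 675 and had a swing of 0.13 on the log2 scale with a peak at ZT6.72 (adjusted p = 0.470, limma). Among 12 tested genes of thyroid hormone handling and response, 1 was called (8.33%, against 2.13% of all genes). It was Klf9, which also counts among the corticosteroid targets. Thrsp, the lipogenic thyroid-responsive Spot 14 gene, had the next smallest p (2.61-fold, peak ZT17.9, adjusted p = 0.0826, limma). Dio1, a deiodinase gene, and Me1, the cytosolic malic enzyme gene, had swings of 2.30-fold and 1.12-fold that did not pass (adjusted p = 0.410 and 0.422, limma). Dio1 ran from 68.2 to 609 over the arrays, and its log2 swing from 0.56 to 1.86 over the alternative settings. The median over the list was 1.13-fold, against 1.14-fold over all genes.

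**Figure D2:**
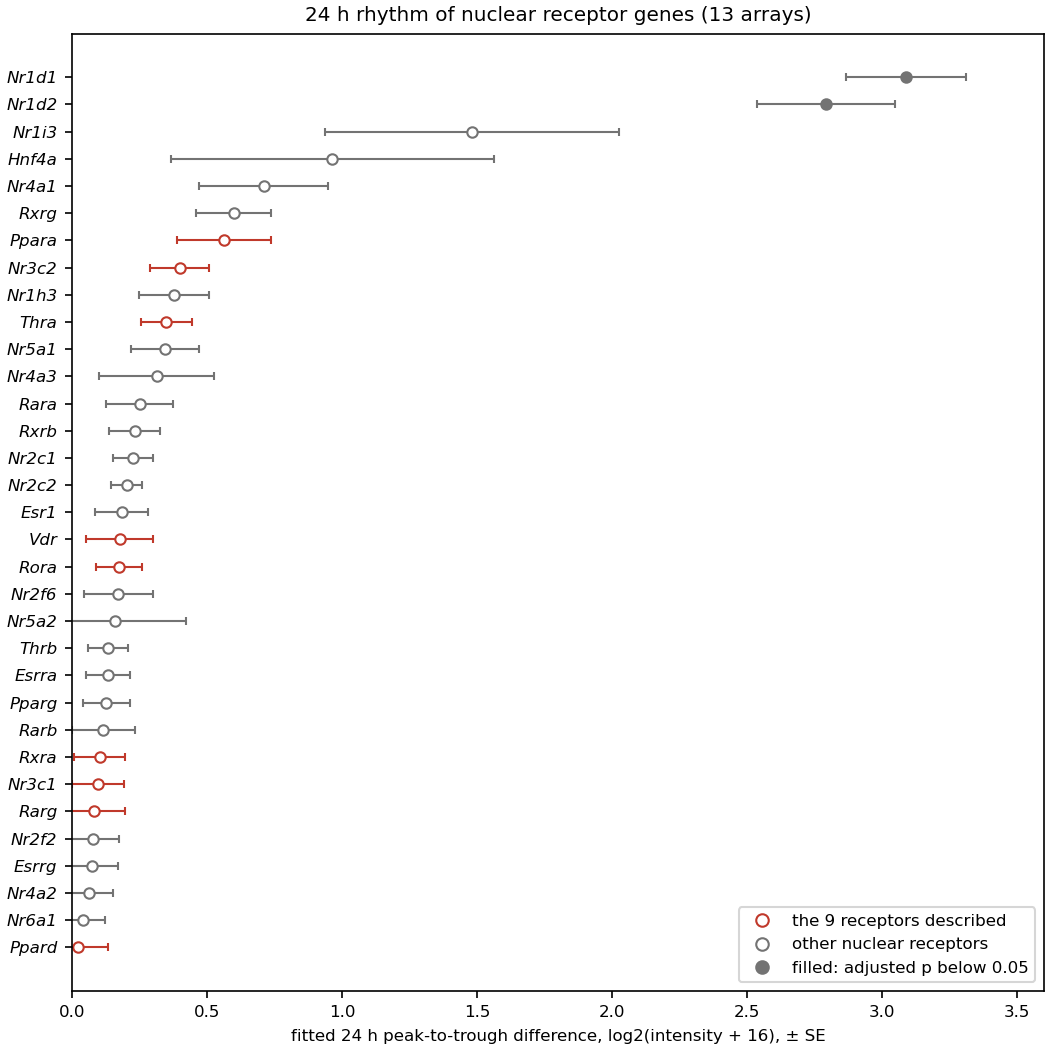
Fitted 24 h peak-to-trough difference on the log2(intensity + 16) scale, with its SE, for the 9 receptors (red) and 24 other nuclear receptors (grey), each fitted over 13 arrays; error bars are drawn only above 0. Filled points passed the adjusted threshold: only Nr1d1 at 3.09 and Nr1d2 at 2.79 did, while the 9 receptors lay between 0.02 and 0.56.

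Vdr, the vitamin D receptor, measured 2962, 4309 and 3723 at ZT2, 4132 and 4039 at ZT6, 3787 and 3739 at ZT10, 3386 and 3831 at ZT14, 3639 and 3796 at ZT18, and 3004 and 3728 at ZT22. Its lowest values were those of the first ZT2 and first ZT22 arrays; the other 11 arrays lay between 3386 and 4309. Rarg, the retinoic acid receptor that predominates in epidermis, measured 2007, 2946 and 2488 at ZT2, 2658 and 2624 at ZT6, 2407 and 2566 at ZT10, 2529.7 and 2615 at ZT14, 2750.4 and 2706 at ZT18, and 2282 and 2892 at ZT22. It too was lowest on the first ZT2 and first ZT22 arrays. The swings were 0.18 ± 0.12 on the log2 scale for Vdr (1.13-fold, adjusted p = 0.591, limma) and 0.08 ± 0.12 for Rarg (1.06-fold, adjusted p = 0.871, limma). The pooled SD within times of day, 0.17 for Vdr and 0.18 for Rarg on the log2 scale, was larger than the SD over all 13 arrays, 0.16 and 0.14; at ZT2 alone Vdr went from 2962 to 4309. The curves within the joint 95% confidence region reached at most 1.43-fold for Vdr and 1.33-fold for Rarg. Without the first ZT22 array the swing of Vdr was 0.10.

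Of 14 listed genes of vitamin D handling and response, 9 were tested, and the others were not measured or fell below the intensity filter. None of the 9 was called by limma, where 2.13% of all genes were. At an unadjusted p below 0.05 were 3, against 18.6% of all genes. Cyp27a1, a sterol hydroxylase that can add the first hydroxyl group to vitamin D, had the smallest p (1.57-fold, peak ZT11.1, adjusted p = 0.103, limma). It was highest on the first ZT10 (3072) and second ZT14 (2703) arrays and lowest on the second ZT22 array (1340). Those arrays also had the highest and lowest summed intensity of the 13 liver genes (106410, 94670 and 15158). The first ZT2 array, with a liver sum of 86054, had 2004. Over the alternative settings, the liver score as a covariate among them, the swing ran from 0.48 to 0.77 on the log2 scale. The part of liver RNA was not tested further. Igfbp3, a growth factor binding protein gene induced through the receptor, and Trpv6, an epithelial calcium channel gene, had swings of 1.28-fold and 1.20-fold with fitted peaks near lights on, at ZT0.28 and ZT0.57. The median over the list was 1.21-fold.

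Retinoid handling and response gave 2 called genes of 20 tested (10%, against 2.13% of all genes), and neither call was firm. Dhrs9, a retinol dehydrogenase gene, swung 1.40-fold with the peak at ZT22.8 (adjusted p = 0.0388, limma, lost under 16 of 26 alternative settings). Crabp1, which encodes a cellular retinoic acid binding protein, swung 1.44-fold with the peak at ZT2.33 (adjusted p = 0.0483, limma, lost under 18 of 26). Its relative Crabp2 peaked near it at ZT1.39 without passing (1.26-fold, adjusted p = 0.227, limma), and Aldh1a1, which makes retinoic acid, had a fitted peak at ZT16.1 (1.40-fold, adjusted p = 0.262, limma). The sister receptor Rara ranged from 739 to 1134 and had a swing of 1.19-fold (adjusted p = 0.397, limma), and Rarb ranged from 212 to 319.7 with 1.08-fold (adjusted p = 0.759, limma).

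Rxra is the partner through which Vdr, Thra, Rarg and both PPAR receptors bind DNA. It measured 2511, 2934 and 2641 at ZT2, 3089 and 2754 at ZT6, 2724 and 2379 at ZT10, 2655 and 2883 at ZT14, 2634 and 2670.0 at ZT18, and 2380.4 and 2577 at ZT22. Both ZT6 arrays lay above both ZT22 arrays, but the ZT10 arrays were as far apart as 2379 and 2724. The swing was 0.10 ± 0.09 on the log2 scale (1.07-fold, adjusted p = 0.724, limma), with at most 1.29-fold inside the joint 95% confidence region. With single arrays left out it ran from 0.04 (without the first ZT6 array) to 0.19 (without the second ZT10 array). Rxra also moved with the skeletal muscle score of the arrays (r = 0.59, rho 0.64, r = 0.50 without the 2 arrays furthest from the median score, a likeness 5.72% of genes matched or passed), and with that score as a covariate its swing was 0.01. Rxrb had a swing of 1.17-fold (adjusted p = 0.308, limma). Rxrg, the third retinoid X receptor gene, stood at 964, 866 and 889 at ZT2 against 584 and 553 at ZT10, and its swing of 1.51-fold with a peak at ZT1.92 came closest to the threshold among the other receptors not called (adjusted p = 0.0820, limma); under 1 of 26 alternative settings it passed.

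Ppara and Ppard are fatty acid sensors that switch on lipid oxidation; Ppara is most abundant in liver, and Ppard is the widespread form, prominent in keratinocytes. Ppara measured 1103, 828 and 762 at ZT2, 866 and 1024 at ZT6, 1516 and 893 at ZT10, 1084 and 1386 at ZT14, 888 and 867 at ZT18, and 835 and 762 at ZT22. The first ZT10 and second ZT14 arrays were the highest, the other ZT10 array was at 893, and light and dark arrays covered almost the same range (762 to 1516 and 762 to 1386). The fitted swing was the largest of the 9 receptors, 0.56 ± 0.17 on the log2 scale (1.48-fold, peak ZT11.3), and did not pass (adjusted p = 0.199, limma); the joint 95% confidence region reached 2.09-fold. Dark minus light was -0.04 ± 0.16 (adjusted p = 0.959, limma). Ppard measured 1209, 1659 and 1502 at ZT2, 1532 and 1359.6 at ZT6, 1354 and 1346 at ZT10, 1450.3 and 1369 at ZT14, 1443 and 1475 at ZT18, and 1179.7 and 1446 at ZT22. Its curve was the flattest of the 9, at 0.02 ± 0.11 (1.02-fold, adjusted p = 0.986, limma) and at most 1.26-fold inside the joint 95% confidence region, and its 2 lowest values were again those of the first ZT2 and first ZT22 arrays.

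Liver transcripts moved with Ppara from array to array. The summed intensity of 13 liver genes was highest on the first ZT10 array (106410), the second ZT14 array (94670) and the first ZT2 array (86054). These were also the 3 arrays with the highest Ppara. The sum was lowest on the second ZT22 array (15158), where Ppara was at its lowest (762). Ppara was as low, at 762, on the third ZT2 array, where the liver sum was 61424. On the second ZT10 array, with a liver sum of 25174, Ppara was 893. Over the 13 arrays the liver score and Ppara correlated at r = 0.70 (rho 0.83; r = 0.74 without the 2 arrays furthest from the median score), a likeness to that score that 3.08% of all genes matched or passed. The swing of Ppara, fitted with that score as a covariate, was 0.42 on the log2 scale (adjusted p = 0.201, limma). Alb, the albumin gene, named after its values were seen, ranged from 5263 to 18775. Among the other 7 lists of markers, the adipocyte score reached r = 0.27 with Ppara and the dermal fibroblast score -0.44. The part of liver RNA in the Ppara values was not tested beyond this covariate.

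**Figure D3:**
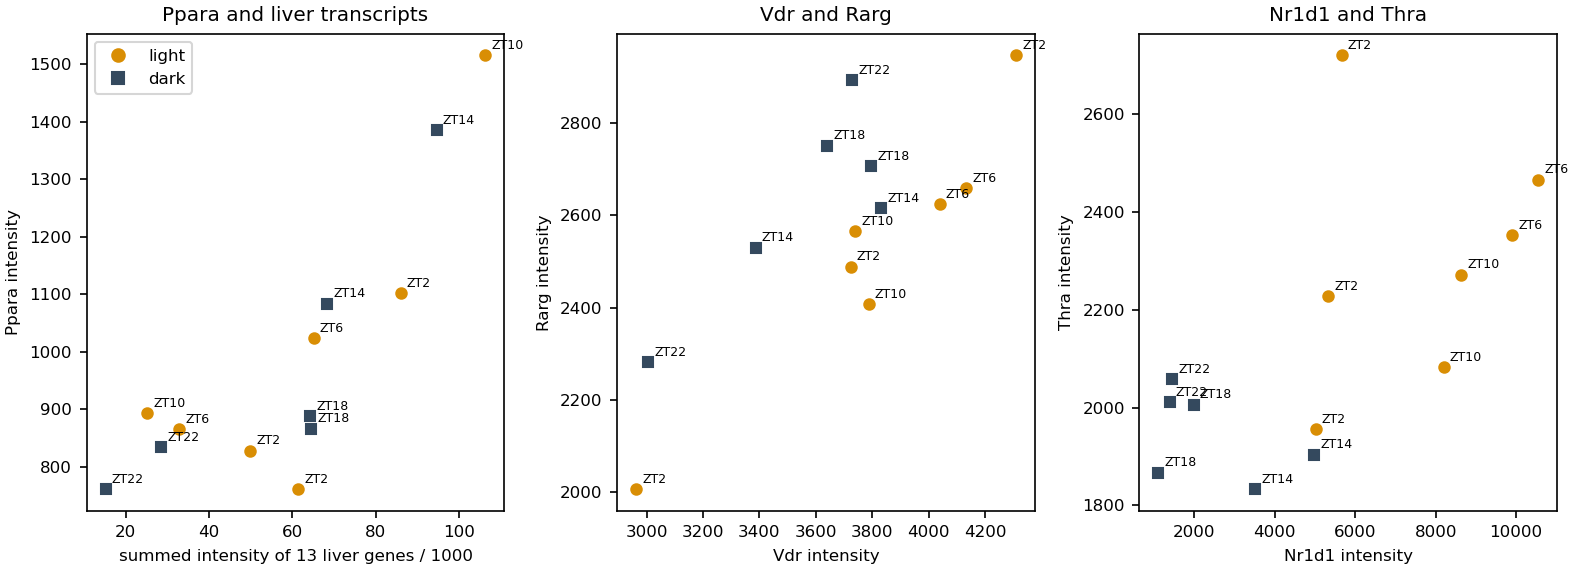
Intensity against intensity in the 13 arrays (orange circles light, dark squares dark, each labelled with its time of day): Ppara against the summed intensity of 13 liver genes divided by 1000, Rarg against Vdr, and Thra against Nr1d1. The highest Ppara value, 1516, stands at the highest liver sum; in the middle panel the first ZT2 and first ZT22 arrays sit apart at low Vdr, and in the right panel the dark arrays lie at or below 2058 for Thra. Axes do not start at 0.

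Among 26 tested PPAR target genes, 2 were called (7.69%, against 2.13% of all genes), both peaking in the light. The median swing over the list was 1.26-fold. Cpt1a, the gate for fatty acid entry into mitochondria, measured 3497 and 2937 at ZT10 and 1847 and 1724 at ZT22; its swing of 1.78-fold with a peak at ZT8.58 was called (adjusted p = 7.9e-04, limma) and held under all 26 alternative settings. Ucp3, a mitochondrial carrier gene of muscle, swung 1.77-fold with its peak at ZT8.19 (adjusted p = 0.0425, limma), a call lost under 14 of the 26. With the skeletal muscle score of the arrays as a covariate its swing was 0.50 on the log2 scale, against 0.82 without it (adjusted p = 0.206, limma). Lpin1, a phosphatidate phosphatase and coactivator gene, and Acot1, an acyl-CoA thioesterase gene, had swings of 1.40-fold (peak ZT12.0) and 1.34-fold (peak ZT1.20) and did not pass (adjusted p = 0.128 and 0.129, limma). In all, 9 of the 26 were at an unadjusted p below 0.05, against 18.6% of all genes, and the count of calls ranged from 1 to 5 over the alternatives. The 4 fatty acid binding protein genes listed as ligand carriers had no call, and none was at an unadjusted p below 0.05 (limma; Fabp3 1.48-fold, Fabp4 1.18-fold, Fabp5 1.18-fold, Fabp1 2.39-fold). Fabp1, a liver gene, ran from 207 to 3754 over the arrays, and its swing of 1.26 on the log2 scale went from 0.49 to 2.04 with single arrays left out and was 0.44 once the liver score entered the fit as a covariate. Pparg, the adipocyte and sebocyte form, ranged from 1506 to 1868 and had a swing of 1.09-fold (adjusted p = 0.576, limma).

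Rora activates clock genes through elements that the REV-ERB receptors repress. It measured 3496, 3429.6 and 3042 at ZT2, 3751 and 3798 at ZT6, 3684 and 3828 at ZT10, 3364 and 3522 at ZT14, 3394 and 3449.8 at ZT18, and 3761 and 3068 at ZT22. All 4 arrays of ZT6 and ZT10 were above all 4 of ZT14 and ZT18, but the arrays of ZT2 and ZT22 ran from 3042 to 3761. The swing was 0.17 ± 0.09 on the log2 scale (1.13-fold, peak ZT9.21, adjusted p = 0.402, limma), and at most 1.33-fold inside the joint 95% confidence region. Its relative Rorb, a gene below the intensity filter and so not tested, measured 163 to 224.

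The genes with known ROR elements moved strongly on the same arrays: all 6 tested were called, where 2.13% of all genes were. Nr1d1 swung 8.52-fold with its peak at ZT7.54 and Nr1d2 6.94-fold at ZT8.97 (adjusted p = 7.9e-05 and 3.8e-04, limma). Arntl, which encodes BMAL1, swung 4.61-fold with the peak at ZT22.2, and Nfil3, a repressor of D-box genes, 2.82-fold at ZT20.9. Cry1 and Clock are the remaining 2, named after their values were seen. The list was known from earlier results on these arrays to be rhythmic, so its count is a description. Their count stayed between 4 and 6 over the alternatives. It was 4 with the dimmest 50% of genes left out, which took Nfil3 out of the test, and 6 without each single array. Within the rest of the receptor family, 24 genes tested, the REV-ERB genes were the only calls (8.33%, against 2.13% of all genes). Nr2c2 had 1.15-fold (adjusted p = 0.172, limma), and 7 of the 24 were at an unadjusted p below 0.05, against 18.6% of all genes.

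Coregulators, the corepressors and coactivators that receptors recruit, gave no call among 16 tested (limma, where 2.13% of all genes were called). At an unadjusted p below 0.05 were 3, against 18.6% of all genes. Their median swing was 0.14 on the log2 scale against 0.19 over all genes. Ppargc1a, the PGC-1 alpha coactivator gene of PPAR receptors, had 1.39-fold with a peak at ZT6.64 (adjusted p = 0.135, limma). The acetyltransferase gene Ep300 had 1.18-fold, the corepressor deacetylase gene Hdac3 1.16-fold and its complex partner Tbl1xr1 1.16-fold, none of which passed. Under all 26 alternative settings the count of called coregulators remained 0.

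**Figure D4:**
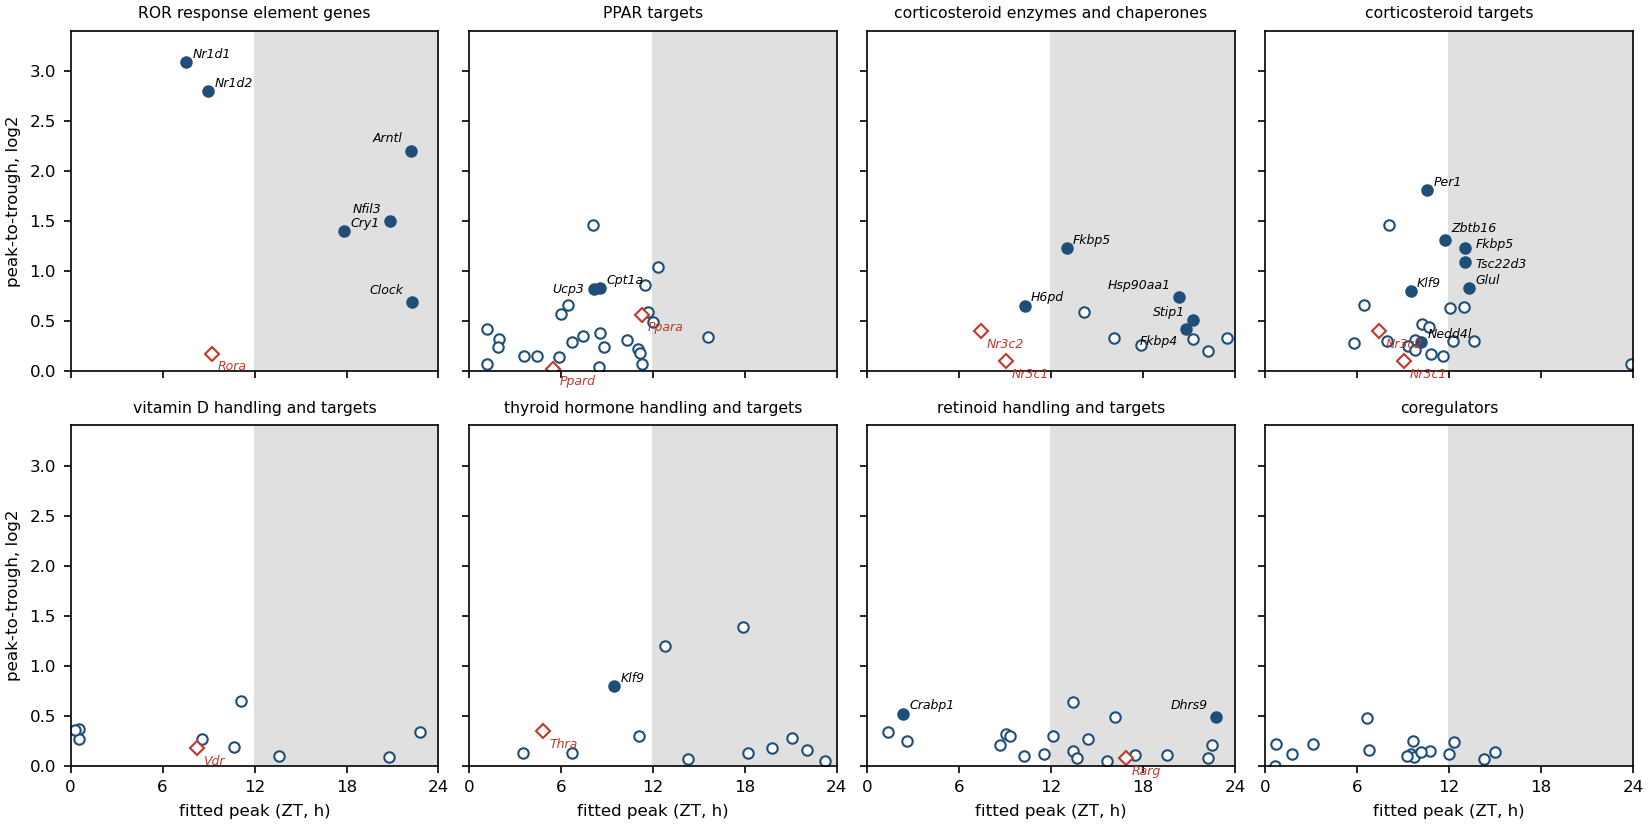
Fitted 24 h peak-to-trough difference (log2, vertical axis) against fitted peak time (ZT in hours, horizontal axis, dark phase shaded) for the tested genes of 8 lists; filled circles passed the adjusted threshold of 0.05 and are named, and red diamonds mark the receptor or receptors each list belongs to. In the corticosteroid, PPAR and ROR panels called genes such as Per1, Cpt1a and Nr1d1 stand above their receptors, and the vitamin D and coregulator panels hold no filled circle.

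The other comparisons gave no call among the 9 receptors either. Treated as a factor, time of day called 44 genes (0.294% called, limma), none of them a member, and no member was at an unadjusted p below 0.05, where 8.99% of all genes were; the members' adjusted p ranged from 0.579 for Nr3c2 to 0.962 for Rarg. Dark minus light called 3 genes (0.0201% called, limma) and no member; 2 members, Nr3c2 and Thra, were at an unadjusted p below 0.05, where 8.28% of genes were. The difference was below 0 for 8 of the 9 receptors, and for 59.8% of all genes, and 0.06 ± 0.08 for Rarg; those of Ppara, Ppard and Nr3c1 were near 0 and changed sign under some alternative settings. Light and dark arrays overlapped in all 9 receptors; in 0.361% of all genes they did not. The members' median dark minus light difference was -0.04, against -0.02 for all genes.

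No difference between days passed the test for any receptor. Over the 12 arrays of the first and second day, with time of day as a block, no gene was called (0% called, limma; 6.53% at an unadjusted p below 0.05), and the members' adjusted p lay between 0.603 and 0.897. Vdr had the largest second minus first day difference, 0.17 ± 0.08 on the log2 scale, followed by Rarg at 0.16 ± 0.09, and both were higher on the second day at 4 of 6 times of day. These 2 differences rest in part on the low first ZT2 and first ZT22 arrays, both of the first day: with the first ZT2 and the second ZT22 array left out, so that ZT6, ZT10, ZT14 and ZT18 were the only complete pairs, they were 0.05 and 0.02. No receptor passed the test for a curve that differs between days (day by rhythm interaction: 0 genes called by limma, 12.8% of genes and 0 members at an unadjusted p below 0.05).

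Across the 13 arrays the 9 receptors did not move as a block. Their 36 pairwise correlations of log2 intensity ran from -0.71 (Ppard with Nr3c1) to 0.80 (Ppard with Rarg) with a median of 0.19, and 5 pairs reached 0.7. Vdr, Rarg and Ppard made the closest trio, at r = 0.80 for each of the 3 pairs. Those values lean on 2 arrays: without the first ZT2 and first ZT22 arrays they were 0.43 for Vdr with Rarg, 0.44 for Vdr with Ppard and 0.58 for Ppard with Rarg. Vdr with Rxra went from 0.73 to 0.65, while Vdr with Thra went up from 0.64 to 0.82. Rora tracked the corticosteroid receptors, at 0.71 with Nr3c2 and 0.68 with Nr3c1, and these were 0.75 and 0.67 on the 11 arrays; without the second ZT22 array and the third ZT2 array, where Rora was lowest, they were 0.50 and 0.81. Such likeness was not rare: of all genes, 2.61% matched Ppard as closely as Rarg did, 4.45% matched Vdr as closely as Rarg did, and 1.78% matched Rora as closely as Nr3c2 did. These correlations share arrays, RNA pools and scaling, and are given as a description.

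**Figure D5:**
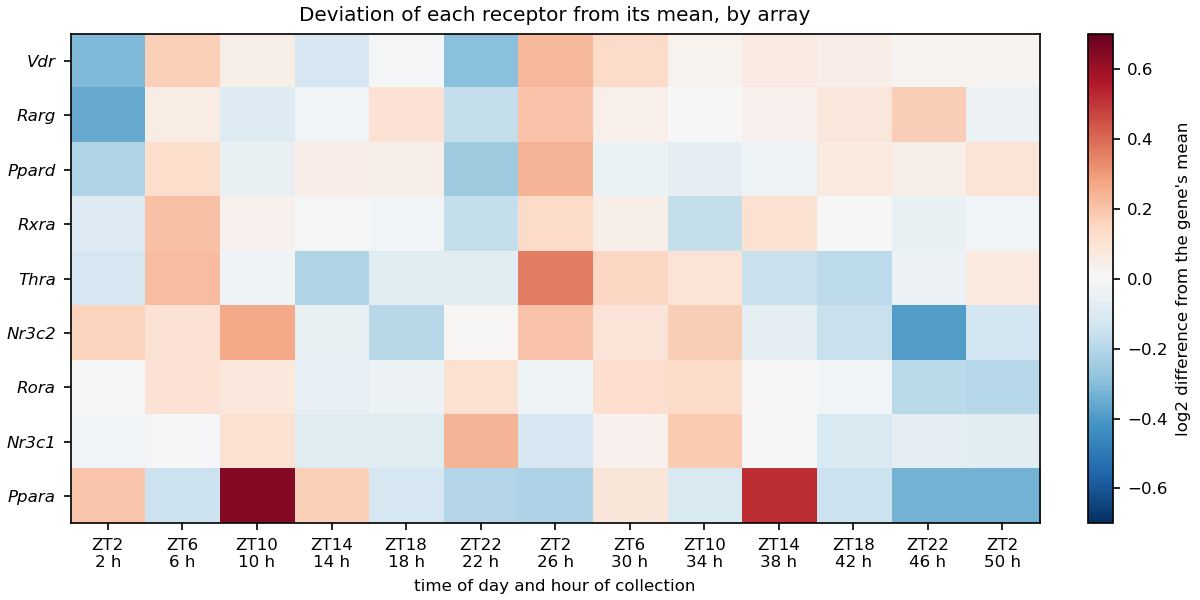
Difference of each receptor from its own mean over the 13 arrays, log2(intensity + 16), by array in order of collection (blue below, red above the mean). The blue cells of Vdr, Rarg and Ppard coincide on the arrays of hours 2 and 22, and Ppara is deepest red at hours 10 and 38.

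The genes most like each receptor over the 13 arrays, by Pearson's r over all genes tested, were Pcyt1a (0.95) and Ankrd16 (0.93) for Nr3c2, Rnaseh2b (0.96) and Tmem59 (0.89) for Nr3c1, and Arhgef7 (0.95) and Lpin3 (0.94) for Thra. For Vdr they were Ccdc130 and Scamp2 (0.97 each), for Rarg Gas2l1 and Mboat7 (0.95 each), and for Ppard Agpat1 and Tmem94 (0.95 each). For Rxra they were Ralgds (0.92) and Plekhg6 (0.91), and for Rora Mfsd11 and Ahnak2 (0.92 each). Ppara was followed most closely by Aqp11 (0.94), a water channel gene, and Papss2 (0.92), which makes the sulfate donor. Papss2 with Ppara depended on 2 arrays, falling to 0.75 without the first ZT10 and second ZT14 arrays, and Tmem59 with Nr3c1 (rho 0.68) fell to 0.78 without the first ZT22 and second ZT10 arrays. Each pair of neighbours is the top of 14953 genes, so these values carry no test and say nothing of shared function.

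Promoter sequence was available from RefSeq for 7 of the 9 receptors, as 9 windows of 250 bases ending at a transcription start (GRCm38.p6). The windows were searched on both strands for 6 short motifs: AGGTCA, the core that most nuclear receptors bind; TAGGTCA, the same with the base that ROR and REV-ERB receptors favour, which overlaps it; CACGTG, the E-box bound by CLOCK and BMAL1, and its variant CACGTT; TTATGTAA, a D-box; and AGAACA, a piece of the corticosteroid receptor element. AGGTCA was in 2 of the 9 windows, against 14% of 32851 promoters searched the same way, and CACGTT in 1 of 9, against 3.85%. TAGGTCA (2.23% of promoters), CACGTG (6.02%), TTATGTAA (0.819%) and AGAACA (16.1%) were in none of the 9. The windows are shown for Nr3c2 and Ppara, which had 2 of the 3 deepest fitted swings, for the receptors with a match, Rxra and Rarg, and for Per1, a gene called rhythmic, as a contrast; matches are in capitals, and TGACCT is AGGTCA read on the other strand.
Nr3c2, chr8:76902080-76902329, plus strand: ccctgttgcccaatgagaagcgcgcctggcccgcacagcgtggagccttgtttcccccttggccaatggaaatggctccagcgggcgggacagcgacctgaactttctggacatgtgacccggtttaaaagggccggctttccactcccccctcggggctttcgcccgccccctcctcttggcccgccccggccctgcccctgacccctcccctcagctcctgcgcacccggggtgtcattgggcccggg
Ppara, chr15:85735526-85735775, plus strand: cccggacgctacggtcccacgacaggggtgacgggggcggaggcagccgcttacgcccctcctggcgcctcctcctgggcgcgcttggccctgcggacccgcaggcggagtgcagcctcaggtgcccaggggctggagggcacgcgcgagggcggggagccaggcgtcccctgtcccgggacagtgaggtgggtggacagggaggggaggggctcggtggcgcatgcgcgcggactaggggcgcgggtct
Rxra, chr2:27709042-27709291, plus strand: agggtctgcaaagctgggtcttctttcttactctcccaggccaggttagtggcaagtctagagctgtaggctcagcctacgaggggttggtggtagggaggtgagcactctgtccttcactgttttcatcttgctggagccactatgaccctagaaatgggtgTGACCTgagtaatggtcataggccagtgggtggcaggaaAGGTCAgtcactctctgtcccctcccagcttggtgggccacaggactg
Rarg, chr15:102257523-102257772, minus strand: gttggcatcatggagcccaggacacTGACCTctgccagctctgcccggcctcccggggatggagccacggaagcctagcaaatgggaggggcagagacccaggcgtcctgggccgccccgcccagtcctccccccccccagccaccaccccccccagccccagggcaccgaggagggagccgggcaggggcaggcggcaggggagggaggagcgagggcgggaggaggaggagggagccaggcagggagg
Rarg, chr15:102246501-102246750, minus strand: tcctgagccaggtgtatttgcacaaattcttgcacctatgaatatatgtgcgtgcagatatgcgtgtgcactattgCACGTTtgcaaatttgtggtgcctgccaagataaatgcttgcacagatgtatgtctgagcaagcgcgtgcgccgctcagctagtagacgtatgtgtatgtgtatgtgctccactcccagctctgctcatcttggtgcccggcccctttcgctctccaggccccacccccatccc
Per1, chr11:69098699-69098948, plus strand: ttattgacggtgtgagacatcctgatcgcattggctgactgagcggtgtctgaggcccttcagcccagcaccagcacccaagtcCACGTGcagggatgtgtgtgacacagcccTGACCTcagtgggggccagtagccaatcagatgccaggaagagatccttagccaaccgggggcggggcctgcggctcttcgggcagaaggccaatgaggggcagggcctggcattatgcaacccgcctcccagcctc
The Rxra window, a second start of the gene, holds AGGTCA once on each strand, each Rarg window holds 1 match, and the Per1 window holds both AGGTCA and CACGTG. A second Per1 window, at chr11:69099902-69100151, holds none of the 6 motifs. The Nr3c2 and Ppara windows hold none of the 6 motifs. Their GC content was 68.4% and 76.4%, against a median of 52.4% over all promoters, and the 9 receptor windows ran from 52.4% to 81.2%. A match describes the letters of these windows and is not evidence of binding.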

How the data were processed

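Values were the deposited linear probe set intensities of 13 Affymetrix whole-transcript arrays; the authors made these intensity values with Affymetrix Expression Console 1.1.1 and PLIER 2.0, per the submitters' processing notes. For normalization between arrays and the array's genome build, nothing is stated in the sources used here. The platform annotation gave 1 gene for 21789 of 35557 probe sets, several for 1621 and none for 12147; 21698 identifiers matched RefSeq, which updated the symbols, and the highest-mean probe set stood for each of 19938 genes. Intensities were transformed to log2(intensity + 16), the dimmest 25% of genes were left out, and 14953 genes were fitted in R 4.3.3 with limma 3.58.1 (lmFit, eBayes).

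Groups came from the labelled collection times. The 24 h cosine and sine pair was tested by F test over 13 arrays; time of day, dark minus light, day (time of day as a block), day by rhythm and a 12 h component were fitted in the same way, with Benjamini-Hochberg adjustment over all genes at 0.05. Standard errors of swing and peak came from the same fit. The 9 receptors, the gene lists and the tests were chosen with earlier results of these data known. Named genes were the 9 receptors, the 2 closest genes of each, up to 4 genes of each list with the smallest p, and the receptors' sister genes. The scripts were tested on simulated data. Alternatives covered the offset, filter, scaling, arrays left out, a replicate block, marker scores as covariates and an intensity trend. Same-numbered arrays share no mice; over 15 pairs of times of day, deviations of the same day correlated at -0.66 to 0.53 (median 0.00034, 6 above 0.1), so the numbers were not taken as pairs. Arrays give no read depth, and their number limits the precision.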

Additional observations from a re-analysis of the deposited data

Results flagged for a closer look

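In groups of 6 dark or 7 light arrays, 3 receptor values stood apart from the rest of their group by Dixon's criterion, which by chance marks about 1 in 20 groups. Ppard on the first ZT22 array (1179.7) was the lowest dark value, with a gap to the next array of 0.666 of the group's range (critical value 0.625). Nr3c1 on the same array (2605) was the highest dark value, with a gap of 0.674 of the range. Vdr on the first ZT2 array (2962) was the lowest light value, with a gap of 0.61 of the range (critical value 0.568).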

How the results depend on the processing

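The 54 results on the 9 receptors had 1146 values under alternative settings; 1110 kept direction and side of the threshold, 4 newly passed it (Thra in 3, Nr3c2 in 1) and 32 changed direction, all at adjusted p of 0.741 or above. Members called for the 24 h rhythm were 0 to 1 without single arrays, 1 without the first ZT2 array and the second ZT22 array (Thra, adjusted p = 0.0442, limma), and 2 without the first arrays of ZT2 and ZT22 (Thra 0.0274, Nr3c2 0.0483), the last setting and the list counts under settings being chosen after seeing the data. Genes called were 128 to 422 without single arrays, 193 with the muscle score as a covariate and 788 without the first arrays of ZT2 and ZT22. Time of day called 18 to 133 without single arrays, 1474 without the first ZT2 array and the second ZT22 array and 16 with collection day as a replicate block, which changed no call on a receptor. Dark minus light called 1 to 26 without single arrays, 1 with the dimmest 50% left out and 1 without the first ZT2 array and the second ZT22 array; the 12 h component called 0 to 191 without single arrays.

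A peak time that moved by more than 6 h was counted as a change of direction. Where this happened, the 24 h swing (log2) of Ppard was 0.045 with quantile normalization, 0.031 with arrays shifted to the same median and 0.13 with the muscle score as a covariate. That of Rxra was 0.012 with the muscle score. For Ppard, Rarg and Rarb it also happened with some arrays left out. Over all settings with 1 or 2 arrays left out, moved peak or not, the swing ran from 0.018 to 0.17 for Ppard. It ran from 0.029 to 0.18 for Rarg and from 0.076 to 0.23 for Rarb. Dark minus light turned above 0 with quantile normalization for Ppara (0.0024), Ppard (0.017) and Nr3c1 (0.0034). With arrays left out it ran from -0.14 to 0.068 for Ppara, from -0.076 to 0.020 for Ppard and from -0.021 to 0.10 for Rarg. Second minus first day, with arrays left out, ran from -0.045 to 0.040 for Rora, from -0.22 to 0.0035 for Ppara, from -0.057 to 0.14 for Ppard, from -0.060 to 0.046 for Nr3c1 and from -0.055 to 0.062 for Rxra. The causes were not tested. Another single-gene probe set could not be tried, since each receptor has 1. With 2 or 3 pools at a time of day, the joint confidence regions still held swings of up to 1.26-fold for Ppard to 2.09-fold for Ppara. Without single arrays the 24 h swing of Nr3c1 ran from 0.041 to 0.21, of Rxra from 0.045 to 0.19 and of Vdr from 0.099 to 0.22.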
